A study of Mus musculus with 9 samples.

Results

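Fatty acid synthesis was followed here through 10 genes of the deposited table: Fasn, Acaca, Acacb, Acly, Scd1, Elovl5, Elovl6, Me1, Thrsp and Pnpla3. They were chosen by name, with earlier results of these data known, and are 10 of the 43346 genes listed. All 10 passed the filter on low counts, which left 15024 genes to test.

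The liver makes fatty acids from surplus carbohydrate: citrate leaves the mitochondrion and is cleaved to acetyl-CoA, a carboxylase turns acetyl-CoA into malonyl-CoA, and fatty acid synthase joins these units into palmitate with NADPH as the reductant. Elongases and desaturases then lengthen and unsaturate the product before it is stored or exported as triglyceride. Feeding and insulin raise this program through the factors SREBP-1c and ChREBP, fasting lowers it, and much of it follows the time of day.

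Whole liver of WT mice of the strain labelled C57/BL6 (C57BL/6J in the methods) and aged 12 weeks was profiled by RNA-Seq of polyadenylated RNA in 9 libraries. The vehicle group gave 3 resection specimens at the time of 70% partial hepatectomy (0 h, the baseline) and 3 regenerating remnants at 40 h, and mice given NSC gave 3 remnants at 40 h. NSC, or NSC-87877, inhibits the phosphatases SHP2 and SHP1; each mouse of that group received 7.5 mg/kg at a time, with 2 injections daily. The sample records place the first dose 12 h before surgery, whereas the methods place it 1 day before. Every 40 h liver had undergone surgery and anesthesia, and the baseline livers had received vehicle. Both 40 h groups were set against the same 3 vehicle specimens, since resection tissue from the NSC arm was not analysed here. The labels give no clock time for any sample. Any difference in time of day between 0 h and 40 h cannot be told apart from time since surgery. The labels do not state which specimen and remnant came from the same mouse.

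Levels are given as CPM, a gene's count relative to all counts of the library, scaled by TMM (trimmed mean of M values) factors. Library totals lay between 23997363 and 42887589 counts, so that Scd1 rested on 14949 to 436268 counts per library and Pnpla3 on only 8 to 160. A gene fell or rose where edgeR's quasi-likelihood test gave a Benjamini-Hochberg adjusted p under 0.05 over all 15024 genes, and groups did not overlap where every library of the first lay beyond every library of the second. Summed hepatocyte markers (Alb, Apoa1, Ttr, Hnf4a, Cps1, Tat and Asgr1) reached 89582 CPM or more in every library. Of these 7, 1 fell in vehicle and 3 in NSC remnants, against 11.0% and 16.5% of all tested genes. Fat cells also make fatty acids, but of their defining markers Lep had no count in any library, Plin1 at most 0.030 CPM, Adipoq at most 0.130 CPM and Retn at most 0.125 CPM. The rest of that list was Cfd, Adrb3 and Pck1, which all fell in both comparisons, and Fabp4, which rose in both. Its summed level of 4361 to 5400 CPM at baseline, 1701 to 3177 CPM in vehicle and 1073 to 1514 CPM in NSC remnants was almost wholly Pck1, a gluconeogenic enzyme that hepatocytes express. Of the 7 Kupffer cell markers 2 rose in vehicle and 5 in NSC remnants, against 12.7% and 18.2% of all tested genes. Their summed levels were 128 to 188, 136 to 243 and 268 to 452 CPM in the 3 groups, and none of the 7 was at 0. With baseline replicate 2 left out, 8.79% of all tested genes fell and 1544 of 15331 rose in vehicle remnants, and 13.8% fell in NSC remnants. In that setting 1 of the 7 Kupffer cell markers rose in vehicle remnants. The fat cell list had 2 falls and no rise there, and the hepatocyte falls in NSC remnants numbered 2. Their part in the results below was not tested. In bulk tissue, fewer cells of a type and less RNA per cell cannot be told apart.

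Baseline replicate 2 stood apart in these genes before any comparison was made. It held 9 of the 10 above both other baseline livers, against 36.5% of all tested genes, and 6 of the 10 at least 2-fold above the mean of the other two, against 3.71% of all tested genes. The excess was 8.42-fold for Thrsp, 4.24-fold for Pnpla3, 2.98-fold for Fasn, 2.63-fold for Elovl6, 2.48-fold for Acacb and 2.20-fold for Acaca, and between 1.61- and 1.81-fold for Acly, Me1 and Scd1. Elovl5 went the other way, at 0.672 of the mean of the others. The same library differed in clock genes, named here after their values were seen. Dbp, a clock output factor, had 81.0 CPM against 0.411 and 1.29 CPM in the other baseline livers, and Per3 had 66.6 CPM against 2.15 and 3.56 CPM. Arntl, the core activator BMAL1, had 1.65 CPM against 33.8 and 35.5 CPM. Vehicle replicate 2 was also high in 5 of the 10 genes by at least 2-fold, against 2.09% of all tested genes: Pnpla3 (3.79-fold), Scd1 (2.96-fold), Thrsp (2.71-fold), Acacb (2.67-fold) and Fasn (2.29-fold). Its clock genes did not stand out in the same way, with Dbp at 1.09 CPM and Arntl at 27.7 CPM. The part of time of day or feeding in these differences was not tested, and each of the 10 genes is given with and without baseline replicate 2.

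**Figure D1:**
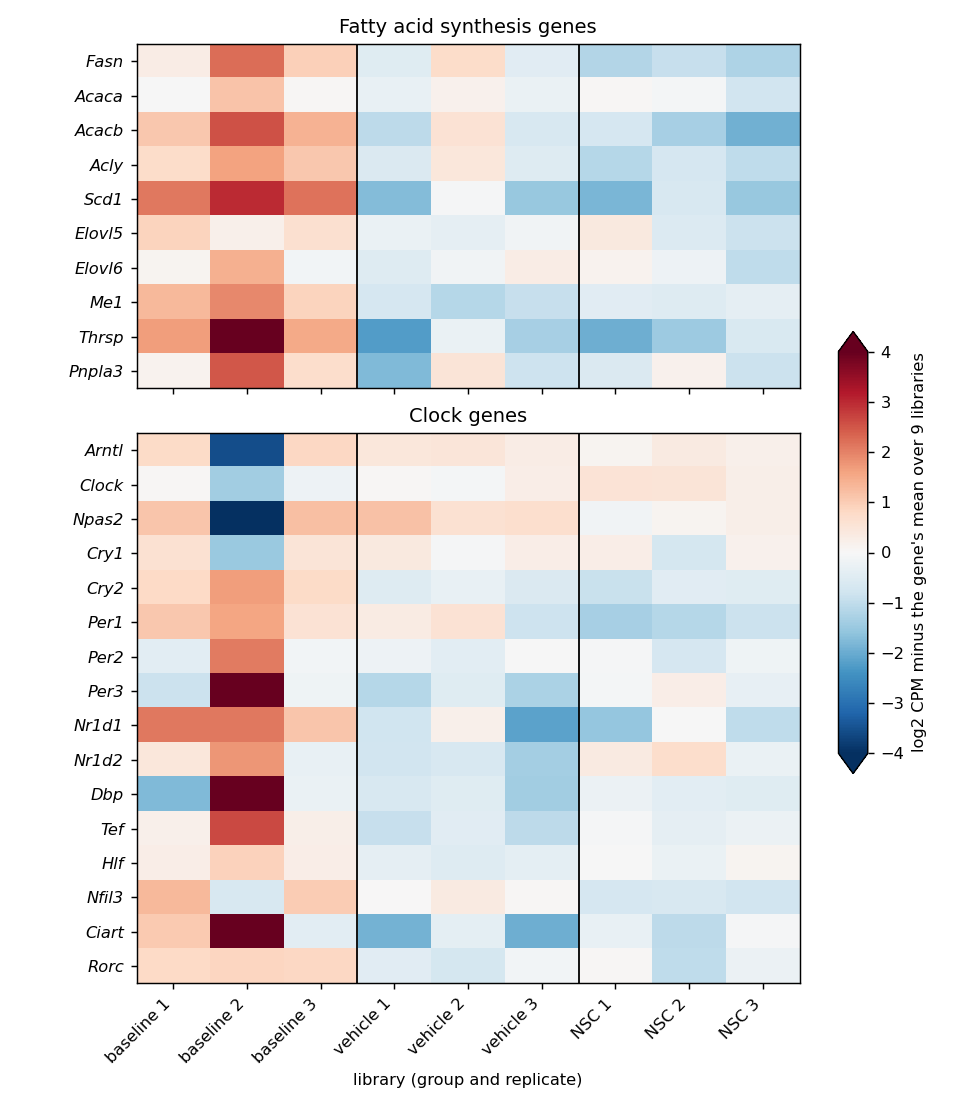
Heat maps of log2 CPM (prior count 2) minus each gene's mean over the 9 libraries, for the 10 fatty acid synthesis genes (top) and 16 clock genes (bottom); columns are libraries, lines part the groups, red is above and blue below the mean, and values beyond 4 are drawn at the end of the scale. Baseline replicate 2 is the reddest column for 9 of the 10 genes above and has the opposite colour to its neighbours for Arntl, Npas2, Per3 and Dbp below.

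The fatty acid synthesis genes were lower at 40 h. In vehicle remnants 5 of the 10 fell (Acacb, Acly, Scd1, Me1 and Thrsp), against 11.0% of all tested genes, and none rose. In NSC remnants 7 of the 10 fell (the same 5 with Fasn and Elovl5), against 16.5% of all tested genes, and none rose. Fold changes of the 10 had a median of -1.64 on the log2 scale in vehicle and -2.00 in NSC remnants, where the median of all tested genes was 0.01 in both. With a log2 fold change under -1.5 also required, 4 of the 10 passed in vehicle and 6 in NSC remnants, against 2.19% and 2.75% of all tested genes. Groups did not overlap for 6 of the 10 in each comparison, all lower at 40 h, against 22.0% and 23.1% of all tested genes. Without baseline replicate 2, 5 of the 10 still fell in vehicle remnants (Acly, Scd1, Elovl5, Me1 and Thrsp) and 7 in NSC remnants (Fasn, Acacb, Acly, Scd1, Elovl5, Me1 and Thrsp), against 8.79% and 13.8% of all tested genes, with medians of -1.04 and -1.67. Scaled by library size alone, 5 and 6 of the 10 fell. That scaling raised the median of all genes in NSC remnants against baseline to 0.15 on the log2 scale and turned the split of all calls there from 2728 up and 2479 down into 3399 up and 1795 down.

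**Figure D2:**
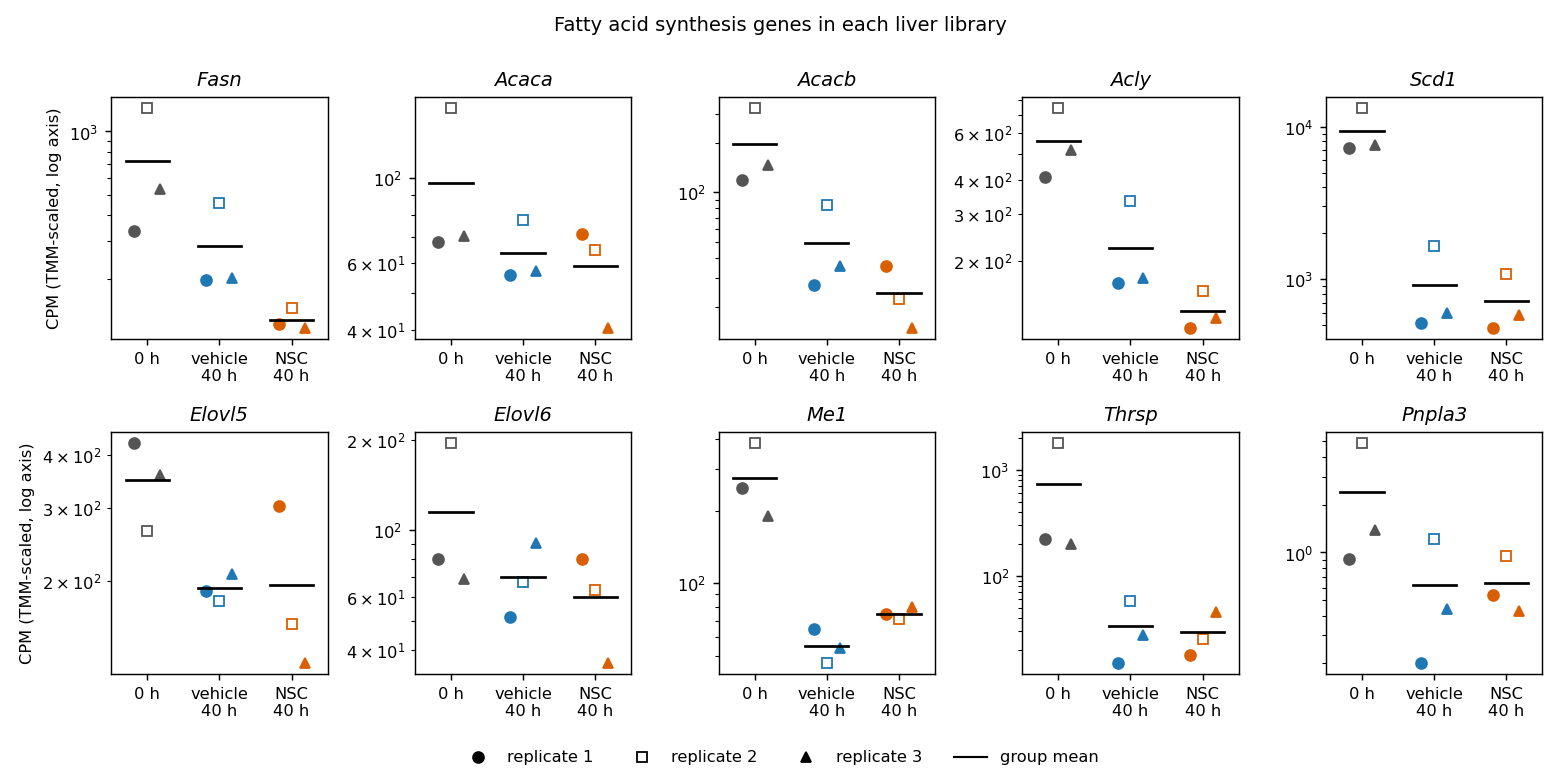
TMM-scaled CPM of each gene in every library, on a log axis whose range differs between panels; marker shapes give the replicate number, open squares are replicate 2, and bars are group means of 3 livers. Scd1 is at 7196 CPM or more in every baseline liver and at or below 1639 CPM in every 40 h liver, while Acaca and Elovl6 overlap between all groups.

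Acly makes the cytosolic acetyl-CoA that feeds the pathway, by cleaving citrate. Baseline livers had 410, 746 and 519 CPM, vehicle remnants 165, 334 and 173 CPM, and NSC remnants 112, 154 and 122 CPM. All 40 h values lay below all baseline values, and all NSC values below all vehicle values. Acly fell by 1.32 ± 0.30 (SE) on the log2 scale in vehicle remnants, 2.49-fold, with an adjusted p of 0.00912 by edgeR's quasi-likelihood test. In NSC remnants it fell by 2.11 ± 0.31, 4.31-fold, with an adjusted p of 0.000586. Without baseline replicate 2 both calls held, at -1.05 ± 0.29 and -1.84 ± 0.29.

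The start of Acly (ENSMUSG00000020917) lies on the minus strand of chromosome 11. The 250 bases before it are shown because the gene was lower in every 40 h liver, with capitals for the GC box GGGCGG on either strand, of which the stretch holds 4 (RefSeq, GRCm38.p6, chr11:100528001-100528250, 5′ to 3′ along the gene):
Acly: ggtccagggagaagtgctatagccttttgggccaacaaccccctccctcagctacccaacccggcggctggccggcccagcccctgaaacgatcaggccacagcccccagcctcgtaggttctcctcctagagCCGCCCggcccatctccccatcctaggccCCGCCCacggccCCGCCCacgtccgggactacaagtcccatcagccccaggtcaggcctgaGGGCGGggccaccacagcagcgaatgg
The GC box was found before the start of 3 of the 9 genes that had a stretch in the table and in 32.7% of all 32851 such stretches.

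Acaca and Acacb encode the 2 acetyl-CoA carboxylases. ACC1, from Acaca, is cytosolic and supplies malonyl-CoA for synthesis, whereas ACC2, from Acacb, sits at the mitochondrion, where malonyl-CoA holds back fatty acid entry. Acaca had 68.0, 152 and 70.6 CPM at baseline, 55.8, 77.8 and 57.2 CPM in vehicle remnants and 71.5, 64.9 and 40.6 CPM in NSC remnants. The groups overlapped, and apart from baseline replicate 2 every library lay between 40.6 and 77.8 CPM. Its log2 fold change was -0.61 ± 0.33 in vehicle and -0.72 ± 0.33 in NSC remnants, with adjusted p-values of 0.213 and 0.123 by edgeR's quasi-likelihood test, and -0.12 ± 0.23 and -0.23 ± 0.23 without baseline replicate 2.

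For Acacb, baseline livers had 119, 329 and 146 CPM, vehicle remnants 27.4, 84.4 and 35.8 CPM, and NSC remnants 35.5, 22.4 and 14.9 CPM. Neither 40 h group overlapped baseline. Acacb fell 4.03-fold in vehicle remnants (log2 fold change -2.01 ± 0.58, adjusted p = 0.0428 by edgeR's quasi-likelihood test) and 8.15-fold in NSC remnants (-3.03 ± 0.61, adjusted p = 0.00731). The vehicle call rested on single libraries. It was lost without baseline replicate 2 (-1.43 ± 0.54, adjusted p = 0.114), and also without baseline replicate 3, vehicle replicates 1 or 3, or NSC replicates 1 or 2, with adjusted p-values of 0.0562 to 0.122. It was lost as well with all genes of at least 1 count (0.102) and with the 2 compared groups fitted alone (0.0695). In NSC remnants the call held without each library in turn.

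The 2 carboxylase genes were also compared per unit of gene length. FPKM divides a count by the gene's length and the library's total and so allows levels of different genes to be compared, and scaling between libraries cancels in such a ratio. Acacb was 2.76, 3.40 and 3.26 times Acaca in the baseline livers, 0.772, 1.71 and 0.985 times in vehicle remnants, and 0.781, 0.543 and 0.578 times in NSC remnants. Thus baseline replicate 2, which was high in both genes, had a ratio near those of the other baseline livers. The mean ratio was 3.14 ± 0.336 (SD, n = 3) at baseline, 1.15 ± 0.490 in vehicle and 0.634 ± 0.129 in NSC remnants. Both 40 h groups lay wholly below baseline, with a two-sided exact permutation p of 0.1, the smallest that 3 against 3 allows, and 0.24 after adjustment over the 12 ratio comparisons made. NSC and vehicle remnants overlapped (exact permutation p = 0.2, adjusted 0.343).

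**Figure D3:**
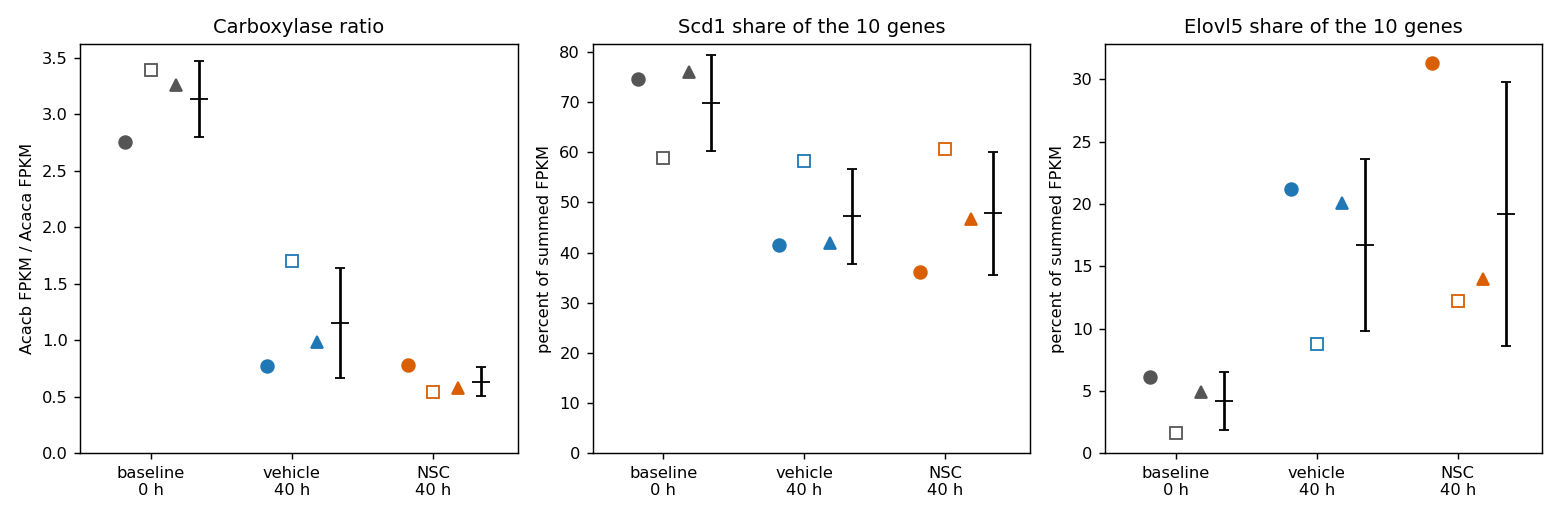
FPKM ratio of Acacb to Acaca (left), and the percent of the summed FPKM of the 10 genes held by Scd1 (middle) and Elovl5 (right), in each liver; circles, open squares and triangles are replicates 1, 2 and 3, and the crossbar with whiskers is the mean ± SD of 3 livers. The carboxylase ratio is above 2.75 in each baseline liver and at 1.71 or less in each 40 h liver.

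Fasn encodes fatty acid synthase, the enzyme that builds palmitate. Its level was 337, 1298 and 535 CPM at baseline, 196, 456 and 202 CPM in vehicle remnants, and 122, 145 and 116 CPM in NSC remnants. Vehicle replicate 2 lay within the baseline range, and the 3 NSC livers lay below every other liver. The NSC group was also the tightest, with a coefficient of variation of 11.7% against 52.1% in vehicle remnants and 70.2% at baseline. Fasn fell 5.66-fold in NSC remnants (log2 fold change -2.50 ± 0.54, adjusted p = 0.00807 by edgeR's quasi-likelihood test), and without baseline replicate 2 the value was -1.77 ± 0.36 (adjusted p = 0.00608). In vehicle remnants the log2 fold change was -1.34 ± 0.52 (adjusted p = 0.0950), which did not pass. The vehicle result moved with single livers: it passed without baseline replicate 1 (-1.69) or vehicle replicate 2 (-1.86) and was -0.61 ± 0.36 without baseline replicate 2. With both replicates numbered 2 left out, a setting chosen after the data were seen, it was -1.12 ± 0.24 with an adjusted p of 0.0152.

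The 250 bases before the start of Fasn (ENSMUSG00000025153, chromosome 11, minus strand) are shown as those of the central enzyme, with capitals for the inverted CCAAT box ATTGG on either strand, 2 of whose 3 matches overlap in a palindrome (RefSeq, GRCm38.p6, chr11:120824548-120824797, 5′ to 3′ along the gene):
Fasn: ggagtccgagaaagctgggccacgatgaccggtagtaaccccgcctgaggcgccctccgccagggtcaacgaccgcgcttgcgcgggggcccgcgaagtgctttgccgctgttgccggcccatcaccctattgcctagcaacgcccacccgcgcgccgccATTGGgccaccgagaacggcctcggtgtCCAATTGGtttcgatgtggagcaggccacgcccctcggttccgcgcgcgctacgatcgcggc

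Me1, cytosolic malic enzyme, yields NADPH for the synthase. Baseline livers had 250, 385 and 192 CPM, vehicle remnants 64.5, 46.4 and 53.6 CPM, and NSC remnants 74.2, 71.1 and 79.4 CPM. All 40 h livers lay below all baseline livers, and the NSC remnants lay above the vehicle remnants, the opposite order to Acly and Fasn. Me1 fell 5.03-fold in vehicle remnants (log2 fold change -2.33 ± 0.24, adjusted p = 9.04e-05) and 3.68-fold in NSC remnants (-1.88 ± 0.23, adjusted p = 0.000189), both by edgeR's quasi-likelihood test. These were the smallest adjusted p-values of the 10 genes in each comparison, and both calls held under every alternative tried, with log2 fold changes of -2.53 to -1.89 and -2.08 to -1.56.

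Scd1 encodes stearoyl-CoA desaturase, which makes oleate and palmitoleate. Its level was 7196, 13322 and 7538 CPM at baseline, 511, 1639 and 595 CPM in vehicle remnants, and 477, 1079 and 585 CPM in NSC remnants. No 40 h liver came near the baseline range, and replicate 2 was the highest of each group. Scd1 fell 10.2-fold in vehicle remnants (log2 fold change -3.35 ± 0.54, adjusted p = 0.00256 by edgeR's quasi-likelihood test) and 13.1-fold in NSC remnants (-3.71 ± 0.55, adjusted p = 0.00113). Both calls held under every alternative, including without baseline replicate 2 (-3.01 ± 0.54 and -3.37 ± 0.54). Scd1 shares sequence with Scd2 and Scd3, and how the counting split such reads is not given in the sources used here. Scd3 fell too, from 8.18, 14.4 and 9.01 CPM at baseline to 0.475, 1.32 and 0.480 CPM in vehicle and 0.390, 0.238 and 0.235 CPM in NSC remnants, as did Scd2.

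By FPKM, Scd1 was the most abundant of the 10 genes in each group. The sum was 2805 ± 1478 FPKM (SD, n = 3) at baseline, 359 ± 143 in vehicle and 318 ± 52.2 in NSC remnants, with no overlap of either 40 h group with baseline (exact permutation p = 0.1 each, the smallest possible, adjusted 0.24). Scd1 held 74.7%, 58.9% and 76.0% of the sum in the baseline livers, 41.5%, 58.2% and 41.9% in vehicle remnants, and 36.1%, 60.6% and 46.8% in NSC remnants. The replicate 2 livers of the 3 groups thus held nearly the same share, but it was the lowest of the group at baseline and the highest in each 40 h group. In baseline replicate 2, Thrsp held 29.8% of the sum, against 8.81% and 7.61% in the other baseline livers. The mean share was 69.9% ± 9.52 at baseline, 47.2% ± 9.53 in vehicle (exact permutation p = 0.1, adjusted 0.24) and 47.8% ± 12.3 in NSC remnants (exact permutation p = 0.2, adjusted 0.343).

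Elovl5 and Elovl6 are elongases: Elovl6 extends palmitate to stearate, and Elovl5 acts mainly on polyunsaturated chains. Elovl5 had 427, 264 and 358 CPM at baseline, 190, 180 and 208 CPM in vehicle remnants, and 302, 159 and 128 CPM in NSC remnants. Vehicle remnants lay below baseline, and NSC replicate 1 lay within the baseline range. The log2 fold change was -0.86 ± 0.29 in vehicle (adjusted p = 0.0524 by edgeR's quasi-likelihood test, just outside the threshold) and -0.83 ± 0.29 in NSC remnants (adjusted p = 0.0447, just inside). The estimates lay within 1 SE of each other although only the NSC call passed. Without baseline replicate 2 both passed (-1.03 ± 0.30 and -1.003 ± 0.30). The NSC call was lost without each of baseline replicates 1 and 3, the 3 vehicle libraries, and NSC replicates 2 and 3, with adjusted p-values of 0.0626 to 0.144, and also with library size scaling (0.108), all genes of at least 1 count (0.0813) or the 2 compared groups fitted alone (0.0918). The vehicle call was gained without NSC replicate 1 or 3, with DESeq2 (0.0173) and in the fit of 2 groups (0.00599). Its part of the summed FPKM of the 10 genes was 6.09%, 1.60% and 4.96% at baseline, 21.2%, 8.76% and 20.1% in vehicle and 31.3%, 12.2% and 14.0% in NSC remnants. Every 40 h liver thus held a larger part than any baseline liver, a difference for which no test was made. It was a part of a smaller sum: mean Elovl5 was itself lower at 40 h, at 53.3 FPKM in vehicle and 59.7 FPKM in NSC remnants against 95.8 FPKM at baseline.

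Elovl6 had 79.96, 195 and 68.7 CPM at baseline, 51.3, 67.2 and 90.5 CPM in vehicle remnants and 80.3, 63.4 and 36.0 CPM in NSC remnants. All 3 groups overlapped, and only baseline replicate 2 exceeded 90.5 CPM. Its log2 fold changes of -0.72 ± 0.45 and -0.94 ± 0.45 did not pass (adjusted p = 0.288 and 0.146 by edgeR's quasi-likelihood test) and were -0.09 ± 0.32 and -0.31 ± 0.32 without that library. DESeq2 called it lower in NSC remnants (-0.94, adjusted p = 0.0475). Acaca and Elovl6 were the 2 of the 10 genes whose difference from baseline came nearest to 0 without it. The FPKM ratio of Elovl5 to Elovl6 was 9.03, 2.28 and 8.80 in the baseline livers, 6.26, 4.52 and 3.88 in vehicle and 6.35, 4.22 and 5.98 in NSC remnants. These ranges overlapped, and the exact permutation p was 0.6 or more in each comparison.

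Thrsp, also called Spot 14, is a small nuclear protein tied to lipogenesis and induced by thyroid hormone and carbohydrate. It had 224, 1783 and 199 CPM at baseline, 14.9, 57.6 and 27.6 CPM in vehicle remnants, and 18.0, 25.5 and 45.5 CPM in NSC remnants. No 40 h liver reached the baseline range, although baseline replicate 2 was far above its group. Thrsp fell 22.0-fold in vehicle remnants (log2 fold change -4.46 ± 1.09, adjusted p = 0.0250 by edgeR's quasi-likelihood test) and 24.8-fold in NSC remnants (-4.63 ± 1.10, adjusted p = 0.0162). Much of the size came from baseline replicate 2: without it, the log2 fold changes were -2.66 ± 0.61 (adjusted p = 0.0286) and -2.84 ± 0.61 (adjusted p = 0.0169). Its vehicle call was lost without vehicle replicate 1 (adjusted p = 0.0933) or 3 (0.0723), and its NSC call without NSC replicate 1 (0.0718) or 2 (0.0603). With all genes of at least 1 count the vehicle value was 0.0534, and with the 2 compared groups fitted alone 0.0643.

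The stretch before the start of Thrsp (ENSMUSG00000035686, chromosome 7, minus strand) is shown for the gene with the largest fold change of the 10 in both comparisons with baseline over all libraries; without baseline replicate 2 that gene was Scd1. It holds the inverted CCAAT box ATTGG once on each strand, in capitals (RefSeq, GRCm38.p6, chr7:97417551-97417800, 5′ to 3′ along the gene):
Thrsp: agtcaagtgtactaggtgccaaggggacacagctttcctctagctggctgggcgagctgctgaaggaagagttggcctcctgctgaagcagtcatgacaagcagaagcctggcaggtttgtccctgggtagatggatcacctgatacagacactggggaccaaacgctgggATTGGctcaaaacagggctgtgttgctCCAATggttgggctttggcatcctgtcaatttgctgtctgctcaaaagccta
The inverted CCAAT box stood before 6 of the 9 genes with a stretch (Fasn, Acacb, Elovl5, Me1, Thrsp and Pnpla3) and in 33.8% of all stretches, and for Me1 it lay before the second of the 2 starts that RefSeq lists. The E-box CACGTG was found before Elovl5 alone (6.02% of all stretches) and the TATA box TATAAA before Acacb alone (12.4%). The sterol regulatory element, sought as TCACNCCAC, was found before none of the 9 and in 1.05% of all stretches. The stretches of Acacb and Acaca precede starts at positions 114165518 and 84195438. Both lie inside the genes as counted, which begin at 114146535 and 84129672, and the bases before those outer ends were not searched. All motifs were read on both strands and are descriptions of the letters only.

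Pnpla3, a lipid droplet protein with lipase and acyltransferase activity, was the least abundant of the 10. It had 0.916, 4.89 and 1.39 CPM at baseline, 0.200, 1.22 and 0.443 CPM in vehicle remnants and 0.540, 0.951 and 0.430 CPM in NSC remnants. Replicate 2 was the highest in each group, and the groups overlapped. Its log2 fold changes of -1.93 ± 0.74 and -1.90 ± 0.75 did not pass (adjusted p = 0.0839 and 0.0734 by edgeR's quasi-likelihood test), and without baseline replicate 2 they were -0.87 ± 0.63 and -0.84 ± 0.64. The vehicle result passed without vehicle replicate 2 (adjusted p = 0.0314), and the NSC result passed without baseline replicate 1 (0.0396) or vehicle replicate 2 (0.0456). DESeq2 called it lower in both comparisons (adjusted p = 0.0201 and 0.0203).

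**Figure D4:**
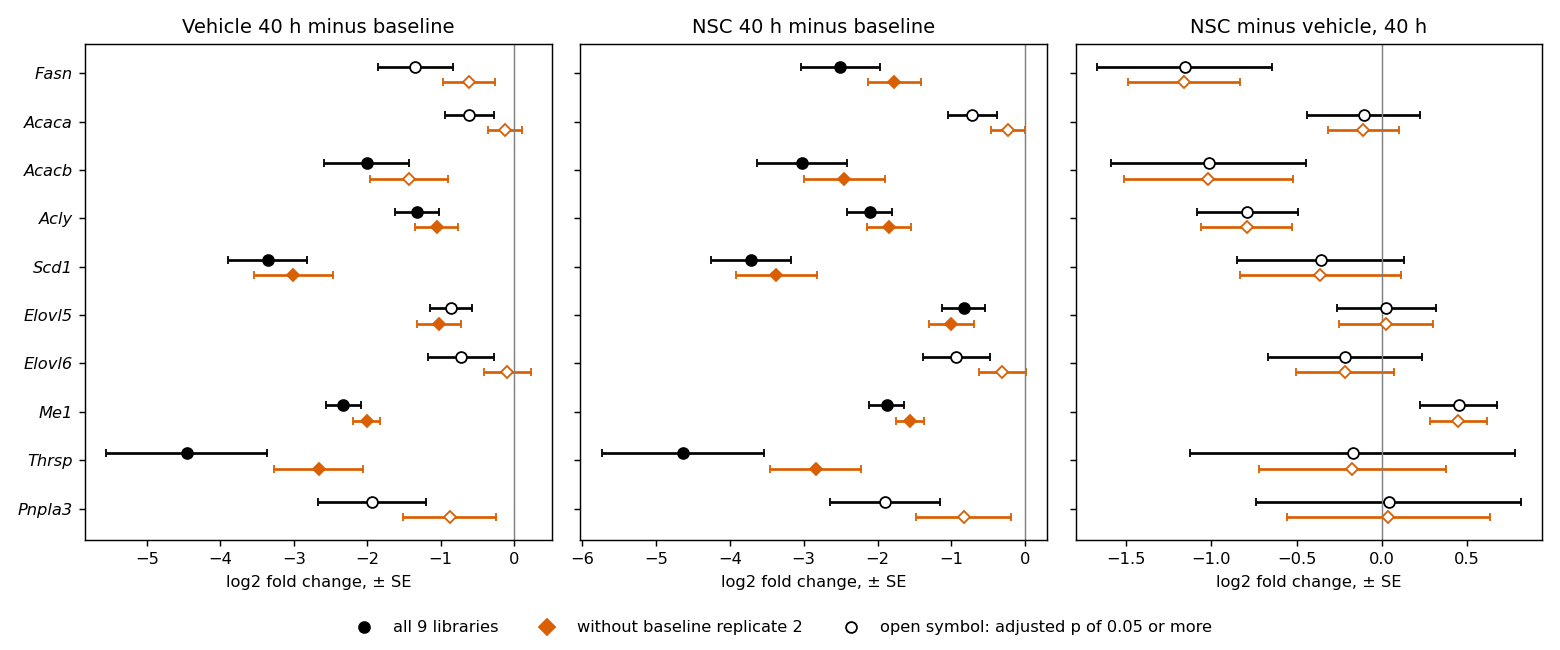
Log2 fold change ± SE of each gene in the 3 comparisons, from all 9 libraries (black circles) and without baseline replicate 2 (orange diamonds); filled symbols have an adjusted p under 0.05 by edgeR's quasi-likelihood test. Against baseline every point lies left of 0, with Thrsp, Scd1 and Acacb farthest in NSC remnants, and in the direct comparison no symbol is filled.

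NSC and vehicle remnants were then compared directly at 40 h, which asks whether these genes differed with NSC, an inhibitor of both SHP2 and SHP1, during regeneration. None of the 10 passed edgeR's quasi-likelihood test, against 0.0399% of all tested genes, and none passed with DESeq2. At an unadjusted p under 0.05 there was 1, Acly, against 10.2% of all tested genes in the same direction. Of the 10, 2 (Acly and Fasn) were lower in all NSC livers than in all vehicle livers, against 12.2% of all tested genes, and 1, Me1, was higher in all NSC livers, against 10.3% of all tested genes. The 10 log2 fold changes had a median of -0.19. Acly was at -0.79 ± 0.30 (adjusted p = 0.187), Fasn at -1.16 ± 0.51 (adjusted p = 0.264), Acacb at -1.02 ± 0.57 (adjusted p = 0.363) and Me1 at 0.45 ± 0.23 (adjusted p = 0.294). Scd1, the most abundant, was at -0.36 ± 0.49, and the other 5 lay between -0.22 and 0.04. Leaving out both replicates numbered 2 brought Fasn to -0.66 ± 0.22, Acacb to -0.39 ± 0.33 and Acly to -0.40 ± 0.20, Scd1 to 0.35 ± 0.32 and Me1 to 0.33 ± 0.18. The high values of vehicle replicate 2 thus entered the larger differences of the former 3. Under GC correction Fasn was at -0.78 ± 0.48. With 3 livers a group these values do not show that the genes were alike in both.

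Order by abundance was read from FPKM. At baseline it ran Scd1 (1867 ± 686 FPKM, SD, n = 3), Thrsp (555 ± 685), Acly (102 ± 31.4), Elovl5 (95.8 ± 22.3), Fasn (70.9 ± 49.7), Me1 (69.1 ± 24.7), Acacb (19.9 ± 11.4), Elovl6 (18.6 ± 11.3), Acaca (6.18 ± 3.05) and Pnpla3 (0.498 ± 0.451). Acly, Elovl5, Fasn and Me1 overlapped one another over the baseline livers, as did Acacb and Elovl6. At 40 h Scd1 still came first, at 179 ± 109 FPKM in vehicle and 155 ± 63.9 in NSC remnants, and Elovl5 second, at 53.3 ± 6.47 and 59.7 ± 30.4. Thrsp, which ranked 2 at baseline, ranked 5 in vehicle (24.6 ± 14.5) and 4 in NSC remnants (24.6 ± 11.7). Acacb stood above Acaca in each baseline liver and below it in each NSC liver (2.70 ± 1.24 against 4.15 ± 1.196). In vehicle remnants its mean was the higher (4.83 ± 2.66 against 4.05 ± 0.501) through replicate 2 alone (7.88 against 4.62 FPKM), and it was below Acaca in replicates 1 and 3.

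Within groups most pairs of the genes varied in the same direction. Of the 45 pairs, 38 had a positive correlation of their log2 deviations from the group means over the 9 libraries, with a median of 0.62, and every 1 of the 36 pairs without Elovl5 was positive. Acly and Scd1 were closest (0.95), and Elovl5 and Thrsp most opposed (-0.64). Me1 was near 0 with Scd1 (0.0015) and Acly (0.064). The share of positive pairs among other tested genes was not computed. These coefficients are descriptive: all pairs share the same 9 libraries, and the replicate 2 livers of baseline and vehicle weigh on them. Over all libraries, the mean profile of the 10 was nearest to 1810008I18Rik (Pearson r = 0.99), Tlcd1, Zcchc24, Dll4, Cyp2e1, Ldb1, Mllt6 and Prr3 (0.97 or more, n = 9 libraries). Only 1 of these 8 was also among the 8 nearest by rank correlation. Taken singly, Acacb was nearest to Mllt6 (0.997) and Scd1 to Tmem63a (0.99), and among the 10 themselves Acly lay nearest to Fasn (0.97) and Acaca to Elovl6 (0.91).

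Other genes of the pathway were counted in lists, whose shares stand against the 11.0% and 16.5% of all tested genes that fell in vehicle and NSC remnants and the 12.7% and 18.2% that rose. Of 12 genes that supply carbon, 7 fell in vehicle and 7 in NSC remnants, and none rose (median log2 fold change -0.63 and -0.75, against 0.01 for all tested genes). The counts were 4 and 6 without baseline replicate 2. Pklr, liver pyruvate kinase, had 175, 656 and 170 CPM at baseline and 39.8 to 62.1 CPM over the 6 remnants, with log2 fold changes of -2.73 ± 0.54 and -2.78 ± 0.54 in vehicle and NSC remnants. They were -1.78 and -1.83 without baseline replicate 2, and both calls held. Khk, the kinase that takes up fructose, was at -1.77 and -1.75. Acss2, which makes acetyl-CoA from acetate, was at -2.14 and -2.86, and Slc25a1, the citrate carrier, at -0.69 and -1.03. All of these were calls by edgeR's quasi-likelihood test, and that of Slc25a1 in vehicle remnants was lost without baseline replicate 2 (adjusted p = 0.0615).

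Of 10 genes for NADPH supply, 4 fell and 2 rose in vehicle remnants, and 4 fell and 1 rose in NSC remnants (medians -0.42 and -0.32). The falls in vehicle numbered 2 without baseline replicate 2. Me2, the mitochondrial malic enzyme, rose by 1.42 ± 0.31 and 1.66 ± 0.31 on the log2 scale from a baseline of 0.924 to 1.41 CPM, the opposite direction to Me1. Idh1, the cytosolic isocitrate dehydrogenase, fell in vehicle remnants (-0.78 ± 0.16), and Aldh1l1, a folate enzyme, fell in both (-1.06 and -1.87). G6pdx and Pgd, the dehydrogenases of the pentose phosphate route, did not pass in either comparison (0.32 and 0.33 for G6pdx, -0.41 and -0.30 for Pgd).

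Other elongases and desaturases were mixed: of 15, 3 fell and 1 rose in vehicle, and 4 fell and 3 rose in NSC remnants (medians 0.13 and -0.013). Without baseline replicate 2, 2 fell and none rose in vehicle, and 3 fell and 3 rose in NSC remnants. Scd3 (-3.77 ± 0.41 and -5.16 ± 0.47) and Scd2 (-1.16 ± 0.24 and -1.41 ± 0.25) fell with Scd1. Fads1, Fads2 and Elovl2, which serve polyunsaturated fatty acids, did not pass, with log2 fold changes between -0.32 and 0.20. In triglyceride assembly, 7 of 15 fell and 1 rose in vehicle, and 6 fell and 1 rose in NSC remnants (medians -0.46 and -0.37), and without baseline replicate 2 the falls numbered 5 and 6. Gpam, the mitochondrial acyltransferase of the first step, was at -0.96 and -1.15, Gpat4 at -0.95 and -1.13, Dgat2, which closes the triglyceride, at -1.03 and -1.45, Acsl1 at -1.55 and -1.38, and Lpin2 at -1.66 and -1.90, all of them calls. That of Gpam in vehicle remnants was lost without baseline replicate 2 (-0.63, adjusted p = 0.127).

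Of 9 genes that control the carboxylases or malonyl-CoA, 2 fell in vehicle, and 2 fell and 1 rose in NSC remnants (medians -0.26 and -0.10), with the same counts without baseline replicate 2. Mlycd, which destroys malonyl-CoA, fell in both (-0.71 ± 0.14 and -1.01 ± 0.14). Prkaa2, a catalytic subunit of AMPK, the kinase that inhibits the carboxylases, fell in vehicle remnants (-0.75 ± 0.13) and was at -0.10 ± 0.13 in NSC remnants. Their direct difference of 0.64 ± 0.13 did not pass (adjusted p = 0.0849). Mid1ip1, the paralog partner of Thrsp, did not pass (-0.61 and -0.56).

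Among 20 regulators of lipogenesis, 4 fell in vehicle remnants and none rose, and 9 fell and 1 rose in NSC remnants (medians -0.28 and -0.63). The falls numbered 5 and 10 without baseline replicate 2. Mlxipl, which encodes ChREBP, had 412, 471 and 438 CPM at baseline, 182, 327 and 159 CPM in vehicle and 158, 135 and 130 CPM in NSC remnants. It fell in both comparisons (-0.99 ± 0.24 and -1.64 ± 0.24) with no overlap of either group with baseline. Srebf1, which encodes SREBP-1, had 209, 347 and 281 CPM at baseline, 56.0, 148 and 67.1 CPM in vehicle and 28.8, 105 and 152 CPM in NSC remnants. All its 40 h values lay below baseline, but the spread within groups was wide and neither difference passed (-1.62 ± 0.62 and -1.55 ± 0.62, adjusted p = 0.0984 and 0.0904). Pparg fell in both (-1.09 and -0.56), Ppargc1b too (-2.34 and -2.47, or -1.75 and -1.88 without baseline replicate 2), and Insig1 and Scap, which hold and escort SREBP, fell in NSC remnants (-1.02 and -1.13). Insig2 and Nr1h3, the latter encoding LXR alpha, did not pass in either. Irs2, an adaptor of the insulin receptor, had the smallest p of the 20 between NSC and vehicle remnants (-2.09 ± 0.39, adjusted p = 0.0849), from 27.7, 33.1 and 11.6 CPM in vehicle to 6.42, 6.08 and 4.54 CPM in NSC livers.

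Of 14 genes of fasting and fat oxidation, 5 fell in each comparison and none passed as higher (medians -0.57 and -0.72), with 2 and 4 falls without baseline replicate 2. Fgf21, named after its values were seen, was at 2.98 and 4.52 with wide spread and did not pass. G6pc (-2.03 and -2.60), Ppargc1a (-1.12 and -1.27) and Pck1 (-0.84 and -1.97) were among the falls, that of Pck1 in vehicle being lost without baseline replicate 2 (adjusted p = 0.0542). Of the 16 clock genes 6 fell in each comparison, led by Cry2 (-1.62 ± 0.24 and -1.76 ± 0.24), with list medians of -1.21 and -1.36. Much of these medians came from baseline replicate 2: without it they were -0.71 and -0.59, with Cry2 at -1.26 and -1.39. In that setting 5 clock genes fell in vehicle, and 6 fell and 1 rose in NSC remnants. None of the 111 genes in these lists passed between NSC and vehicle remnants. Markers of other cell types moved as well: 4 of 5 tested cholangiocyte genes rose in vehicle and 3 in NSC remnants (4 and 1 without baseline replicate 2), 1 and 3 of 5 neutrophil genes rose, 3 and 2 of 7 stellate cell genes rose and 1 fell in each, 2 and 1 of 6 endothelial genes fell (2 and 0 without that library), and 1 of 4 erythroid genes fell in each. Over all tested genes, 11.0% and 16.5% fell and 12.7% and 18.2% rose in vehicle and NSC remnants. Of the exocrine pancreas genes only 1 could be tested, and it did not pass. Their part in the changes of the fatty acid synthesis genes was not tested.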

How the data were processed

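The authors aligned paired-end reads of TruSeq Stranded mRNA libraries with STAR 2.6.1 in MAP-RSeq, counted them on genes with featureCounts (Subread 1.5.1) and deposited raw counts per gene and library, with FPKM values. Recomputing the deposited FPKM from the counts, the library total and the listed gene length plus 1 base gave a largest relative difference of 4.96e-10 above 1 FPKM. The submitters' processing notes name hg38, whereas the genes carry mouse identifiers. All 10 genes overlap their GENCODE M21 (GRCm38) entries, 6 with the same ends.

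The deposited counts were tested with edgeR 4.0.16 in R 4.3.3 (TMM, filterByExpr, robust quasi-likelihood fit over the 9 libraries, condition as the only term). The code was run on simulated counts with the same spread for every gene and no outlying library. That run does not cover genes in which a single liver stands apart. DESeq2 1.42.0 was an alternative. SE is the absolute log2 fold change over the root of F. Replicates are the samples the labels number within a group, and p-values measure the spread between these samples. Ratios were compared on FPKM by exact permutation tests. The list genes named are a fixed core (such as Srebf1, Mlxipl and Pklr) and up to 2 more per list and comparison with the smallest p; all 10 synthesis genes are named. Some list genes are counted but not reported here by name. Genes and lists were chosen with earlier results of these data known. Of the list genes, 5 were matched by identifier and 163 by symbol. Promoter stretches come from the RefSeq table for GRCm38.p6; bases after the start were left out. Alternatives were other scalings, filters and thresholds, 2-group fits, a replicate term, GC correction (known for 99.2% of tested genes) and leaving out libraries.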

Additional observations from a re-analysis of the deposited data

How the results depend on the processing

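Precision is limited by 3 livers a group, and 40 h groups share their baseline. Over 21 alternatives, 3 to 8 of the 10 genes fell in vehicle remnants (5 as reported), 5 to 9 in NSC remnants (7) and none differed between NSC and vehicle; no setting turned a called direction. In vehicle remnants the count was 3 with all genes of at least 1 count, 3 at an adjusted p under 0.01, and 3 to 7 with each library left out (5 to 7 in NSC remnants), the 3 arising without vehicle replicate 1 or 3. With the replicate number as a block it was 8, and 8 with the block and GC correction. Over all genes in vehicle remnants, 1650 of 15024 fell as reported and 1577 of 24325 with all genes of at least 1 count. Without vehicle replicate 1 or 3, 1038 of 15326 and 1109 of 15461 fell. With the block 1676 of 15024 fell, and 1871 of 14900 with GC correction added. In NSC remnants 2479 fell as reported, and 1750 (without baseline replicate 3) to 2734 (DESeq2) over the alternatives at the same threshold. Whether libraries with the same replicate number share a mouse is not stated. Deviations of libraries with the same number correlated at -0.048 to 0.134, and those with different numbers at -0.115 to 0.066. These overlapping ranges do not decide whether the numbers pair the livers. The cause of these changes was not tested. DESeq2 gave no p-value for Thrsp, and Pnpla3 did not reach 10 counts in every library, so these 2 settings hold no value for them. Between NSC and vehicle, genes that did not pass changed sign. Library size alone gave Acaca 0.033 (the median of all genes moved to 0.14); the block gave Elovl5 -0.059 and Thrsp 0.16, GC correction Elovl5 -0.15, both together Elovl5 -0.23 and Thrsp 0.28. Without both replicates numbered 2, chosen after seeing the data, Acaca was 0.052, Scd1 0.35, Elovl5 -0.028 and Thrsp 0.46. With each library left out, Acaca ran from -0.27 to 0.10, Scd1 from -0.79 to 0.37, Elovl5 from -0.43 to 0.26, Elovl6 from -0.49 to 0.044, Thrsp from -0.62 to 0.48 and Pnpla3 from -0.40 to 1.04. Over all genes, calls numbered 3564 in vehicle (2285 without baseline replicate 3 to 4538 without NSC replicate 1). Between NSC and vehicle they numbered 6, against 733 with DESeq2, 221 with all genes of at least 1 count, 11 with the block, 1 with library size alone, 994 when NSC replicate 1 was omitted, 111 when vehicle replicate 3 was, and 0 under GC correction or when any of vehicle replicate 2, NSC replicate 2 and NSC replicate 3 was.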

Other observations

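Genes induced by fasting were uneven within groups, in values picked out after they were seen. Fgf21, a fasting hormone of the liver, had 35.2 CPM in NSC replicate 1 against 0.374 and 0.117 CPM in NSC replicates 2 and 3, and 10.8 CPM in vehicle replicate 1 against 0.570 and 0.775 CPM in the other vehicle remnants. The baseline livers had 1.01, 0.275 and 0.264 CPM of Fgf21. Pdk4, which holds pyruvate back from acetyl-CoA, was uneven at baseline too, with 85.0, 5.10 and 38.9 CPM. It had 50.6 CPM in NSC replicate 1 and 74.9 CPM in vehicle replicate 1, against 6.62 to 17.5 CPM in the other 4 remnants. In those 2 livers Elovl5 was 302 and 190 CPM, and Scd1 was the lowest of its group in each, at 477 and 511 CPM. Lpin1, a phosphatidate phosphatase that also acts on transcription, had 1047 CPM in baseline replicate 2 against 101.5 and 185.9 CPM in the other baseline livers, and Elovl3 had 73.8 CPM there against 730 and 689 CPM.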
